A study of Mus musculus with 19 samples.

Results

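The genes described here belong to the class I antigen presentation pathway and were followed in single cells of the mouse thymic primordium. They are Psmb11, Psmb10, Psmb8, Psmb9, Tap1, Tap2, H2-K1, H2-D1, B2m and Nlrc5. They were taken by name from the table of raw read counts, where they are 10 of 54179 genes, and 9 of the 10 had at least 1 read in the cells analysed. The cells came from wild type C57BL/6 mouse embryos without treatment, were sorted for the surface proteins EPCAM and PLET1 and placed singly into wells. The stages were the third pharyngeal pouch at E10.5 (356 cells that passed the filters, from plates lettered a to d) and the thymic primordium at E12.5 (355 cells, from plates lettered a and c to e). The plate was the replicate (n = 4 per stage). Nothing in the labels says that plates of a stage came from separate litters, so p values measure the spread between plates, which may be technical.

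Cells display peptides on MHC class I molecules, which are made of a heavy chain (H2-K1 or H2-D1 in these mice) and the light chain beta-2 microglobulin (B2m). Proteasomes cut the peptides, and the transporter made of TAP1 and TAP2 carries them into the endoplasmic reticulum, where they are loaded. The immunoproteasome replaces the constitutive catalytic subunits with those encoded by Psmb9, Psmb10 and Psmb8. In cortical thymic epithelium PSMB11 takes the place of PSMB8, and the resulting thymoproteasome makes the peptides on which CD8 T cells are positively selected. NLRC5 is a transactivator of class I genes, and FOXN1 is the transcription factor on which thymic epithelial development depends.

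Psmb11 lies on chromosome 14 from 54621433 to 54629556 on the plus strand (GRCm38, GENCODE vM21). The 250 bases before its RefSeq start site hold the FOXN1 core motif, GACGC or its reverse complement GCGTC, at 2 places, 235 and 58 bases before the start. Both are shown with their flanks, on the plus strand of GRCm38.p6 from RefSeq, because Psmb11 had the largest change of these genes between the stages. Both windows lie inside the GENCODE span of the gene given above, after its annotated start, and the motif is in capitals.

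Psmb11, chr14:54625061-54625085: ctgacaggtgGCGTCttcagagtgt

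Psmb11, chr14:54625238-54625262: cttctccacaGCGTCctcctcctcc

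The core motif was present in 22.6% of the 32851 RefSeq promoters of the same length, counting both strands, so its presence is common. Of the 8 members with a promoter in the table it was also found at 1 place for H2-K1 and Psmb8 and at 3 places for H2-D1, and not in these windows for Psmb10, Psmb9, Tap1 and B2m. An element bound by interferon regulatory factors, GAAA-NN-GAAA where N is any base, was present in 2.977% of all promoters and among the 8 in that of B2m alone. The upstream sequences of H2-K1 and B2m are shown because these genes encode the chains of the presented molecule. The FOXN1 core of H2-K1 and the interferon regulatory factor element of B2m are in capitals, and each sequence reads towards its gene. The H2-K1 stretch is on the minus strand and the B2m stretch on the plus strand. A match describes letters only, and its absence says only that these letters are not in the window.

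H2-K1, chr17:34000348-34000597: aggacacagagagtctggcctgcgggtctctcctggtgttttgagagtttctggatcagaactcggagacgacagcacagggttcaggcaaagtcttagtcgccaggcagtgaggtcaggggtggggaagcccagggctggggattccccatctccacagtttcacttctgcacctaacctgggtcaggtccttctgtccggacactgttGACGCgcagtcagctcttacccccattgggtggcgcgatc

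B2m, chr2:122147437-122147685: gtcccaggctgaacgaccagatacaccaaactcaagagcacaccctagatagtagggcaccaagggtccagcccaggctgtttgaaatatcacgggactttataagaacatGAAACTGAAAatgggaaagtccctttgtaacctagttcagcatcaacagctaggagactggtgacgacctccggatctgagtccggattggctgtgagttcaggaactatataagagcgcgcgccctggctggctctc

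The MHC on chromosome 17 holds H2-K1 from 33996017 to 34000347 and Psmb9 from 34181987 to 34187764 on the minus strand and Tap1 from 34187553 to 34197225, Psmb8 from 34197721 to 34201454, Tap2 from 34203527 to 34216321 and H2-D1 from 35262730 to 35267499 on the plus strand. B2m lies on chromosome 2 from 122147686 to 122153083 and Nlrc5 on chromosome 8 from 94434356 to 94527272, both on the plus strand. Psmb10 lies on chromosome 8 from 105935735 to 105938444 on the minus strand. Psmb9 and Tap1 overlap on opposite strands, as do Psmb10, Psmb8, Tap2, B2m and Nlrc5 with other annotated genes, and the sources used here do not say whether the counting used strand. H2-K1 and H2-D1 have near-identical relatives, and reads that match several genes could be split or lost, so their levels are uncertain.

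The filters kept 711 of the 733 wells. A plate had between 14981265 and 20106286 reads over all its wells and genes, and between 250144 and 970307 molecules, summed over its 2 sequencing runs, in the cells kept, fewest in E10.5 plate a. Levels are in CPM, a gene's reads relative to all protein-coding reads, after adding up the cells of a plate. In such sums fewer cells of a type and less RNA per cell cannot be told apart. Marker genes showed several classes among the sorted cells: 64 of 356 cells at E10.5 had Tubb3, a neuronal tubulin, at 100 CPM or more, and 42 of 355 cells at E12.5 had Chga, a granule protein, at 2000 CPM or more. The summed level of 11 haematopoietic markers was 7.80 to 33.9 CPM in the plates of E10.5 and 0.137 to 60.4 CPM in those of E12.5, with at most 6 of the 11 read in a plate. The summed level of 6 mesenchymal markers was 136 to 211 CPM at E10.5 and 6.78 to 39.0 CPM at E12.5. For mesenchymal, endothelial and erythroid markers their part in the stage differences was not tested.

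Psmb11 was close to absent at E10.5 and strongly present at E12.5. At E10.5 it stood at 0.239, 1.96, 0 and 0.696 CPM in plates a to d, and the 39 reads behind these values lay in 30 cells. At E12.5 it stood at 824, 1039.5, 728 and 727 CPM in plates a, c, d and e. The stages did not overlap, and the pooled level was 1095-fold higher at E12.5. The log2 fold change was 10.01 (SE 0.80, edgeR quasi-likelihood test, adjusted p = 3.22e-05). By molecules summed over both runs, where a molecule found in both counts in each, there were 36 at E10.5 and 1409 at E12.5, and it was 5.39 (SE 0.62, edgeR, adjusted p = 6.11e-05). In the first run alone there were 1 and 696, and it was 8.99 (SE 0.53, edgeR, adjusted p = 5.32e-08), in a comparison added after seeing the data.

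Psmb10, the immunoproteasome subunit that also belongs to the thymoproteasome, was already present at E10.5 and rose. It stood at 129, 80.1, 27.6 and 47.3 CPM in plates a to d at E10.5, and its highest cell carried 20.8% to 35.1% of a plate's Psmb10 reads. At E12.5 it stood at 667, 667, 480 and 562 CPM in plates a, c, d and e. The lowest E12.5 plate was above the highest E10.5 plate. The log2 fold change was 3.04 (SE 0.38, edgeR, adjusted p = 0.000665).

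Psmb9, the remaining subunit shared by both special proteasomes, was low at both stages. Its level was 0, 0.151, 1.54 and 0 CPM at E10.5 and 10.48, 8.63, 7.24 and 5.16 CPM at E12.5. The plates did not overlap, but 18 of its 20 reads at E10.5 came from plate c. The difference did not pass the threshold (log2 fold change 4.12, SE 1.51, edgeR adjusted p = 0.165), and it did without plate c of E10.5 (edgeR adjusted p = 0.0424).

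Psmb8, whose product PSMB11 replaces, was almost unread at both stages. It had 1 read at E10.5, in plate b, and 177 reads at E12.5, all in a single well of plate a. That well had 2 molecules of Psmb8 over both runs and was in the class with Chga at 2000 CPM or more, with 4622 Chga reads and 3312 reads of Pth, the parathyroid hormone gene. It also had 114 reads of Ptprc, 491 of Tyrobp, 95 of Fcer1g and 48 of Il7r, genes of blood cells. It was the only cell of 711 with a read of 3 or more of the 11 haematopoietic markers. No Psmb8 read was found in the 313 E12.5 cells below the Chga limit.

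Both transporter genes were scarce. Tap1 was at 1.35, 0.679, 0 and 0.975 CPM at E10.5 and at 7.86, 9.45, 5.47 and 5.29 CPM at E12.5. These plates did not overlap, but in each plate at E12.5 a single cell carried 35.4% to 78.3% of the Tap1 reads. The log2 fold change of 3.13 (SE 1.19) did not pass the threshold (edgeR adjusted p = 0.185). Tap2 had no read at E10.5 and 18 reads at E12.5, in 1 cell each of plates a, d and e, and was too low to be tested.

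Among the genes of the presented molecule, H2-K1 rose. Its level was 6.9999, 6.34, 1.71 and 4.66 CPM at E10.5 and 30.7, 32.7, 24.7 and 29.0 CPM at E12.5. The plates did not overlap, and the log2 fold change was 2.51 (SE 0.53, edgeR, adjusted p = 0.0166). By molecules of both runs the log2 fold change was 1.79 (SE 0.44, edgeR, adjusted p = 0.0109), and without plate e of E12.5 the edgeR adjusted p by reads was 0.0511.

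H2-D1 overlapped between the stages. It stood at 0, 8.07, 11.7 and 4.87 CPM at E10.5 and at 30.0, 18.2, 14.9 and 6.07 CPM at E12.5. Plate e of E12.5 was below plates b and c of E10.5, and the log2 fold change of 1.31 (SE 1.09) did not pass the threshold (edgeR adjusted p = 0.604).

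B2m did not overlap between the stages. Its level was 2.31, 5.81, 5.48 and 2.16 CPM at E10.5 and 26.4, 20.3, 15.5 and 13.1 CPM at E12.5. The log2 fold change was 2.15 (SE 0.61) and missed the threshold (edgeR adjusted p = 0.0627). It passed when counted by molecules of both runs instead of reads (edgeR adjusted p = 0.00682), by reads with the single-run plate b of E12.5 added (edgeR adjusted p = 0.0442) and by reads in DESeq2 (adjusted p = 0.00375). A molecule found in both runs counts in each, and DESeq2 made 31 false calls between stages on simulated data. By reads in edgeR B2m still missed without the cells with Chga or Tubb3 above their limits, and without the cells with a Ptprc read. Nlrc5 had no read in any of the 711 cells.

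Of the 7 members that could be tested, 3 were higher at E12.5 and none lower. Of the 11499 genes tested 6.24% passed, 3.8% as higher and 2.44% as lower. All 7 had a positive fold change, under every normalization tried, and their median was 3.04 on the log2 scale beside 0.0013 for all genes tested. The count filter asked for enough reads in as many plates as a stage has. Psmb11, Psmb9, Tap1 and H2-D1, each with a plate at 0 CPM at E10.5, met it only with plates of E12.5. Their shared sign and the median are therefore no independent support. Psmb8, Tap2 and Nlrc5 were too low to be tested. Leaving out the cells with Chga and the cells with Tubb3 above their limits changed no member's call, with log2 fold changes of 10.56 for Psmb11, 3.14 for Psmb10 and 2.68 for H2-K1 (edgeR adjusted p = 4.59e-05, 0.00151 and 0.0233). Leaving out the 2 cells of each stage with a read of Ptprc, a choice made after seeing the data, changed no member's call either.

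**Figure D1:**
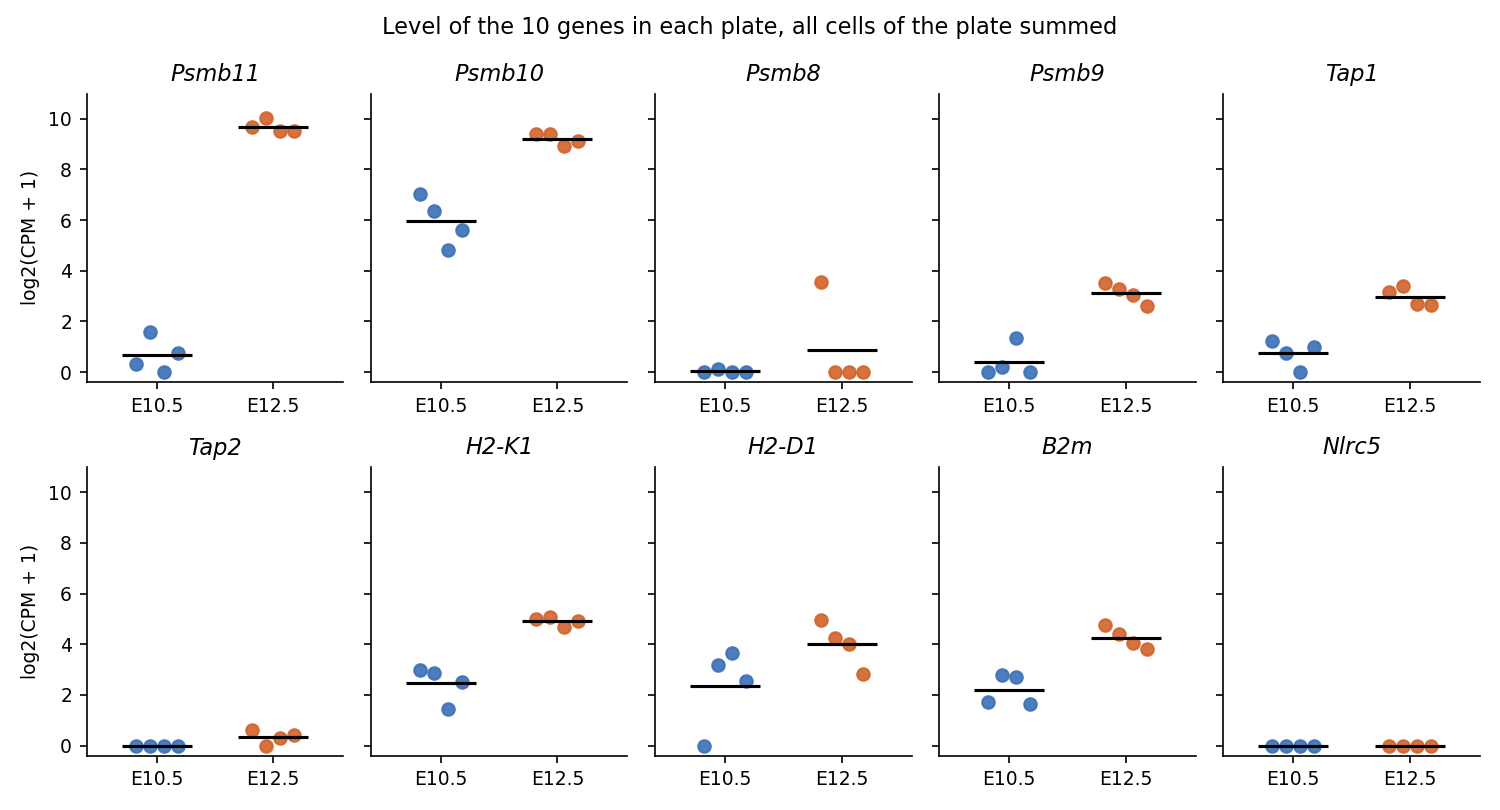
Level of each of the 10 genes in every plate, as log2(CPM + 1), with 1 point per plate (blue E10.5, orange E12.5) and a bar at the mean of the 4 plates. Psmb11 moved from at most 1.96 CPM to at least 727 CPM, Psmb8 reached 10.8 CPM in 1 plate of E12.5, and Nlrc5 was at 0 throughout.

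The share of cells in which a gene was found was measured by molecules of the first sequencing run, because wells could hold reads of a gene without a molecule of it. Chga was read in 64.04% to 97.8% of the cells of an E12.5 plate but had a molecule in 10.1% to 18.9%. Intervals are exact (Clopper-Pearson, 95%). For a gene found in no cell, the share that 3 cells would give is printed as the limit. Both cover counting error only. With 4 plates against 4, no two-sided exact permutation p can fall below 0.029.

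Psmb11 had a molecule in 1.14%, 0%, 0% and 0% of cells in the first run in the E10.5 plates a to d, where 1.14%, 21.98%, 0% and 9.78% had a read of either run. At E12.5 the shares with a molecule were 58.2%, 44.4%, 56.5% and 66.3% in plates a, c, d and e. The mean rose from 0.284% to 56.4% (SD 0.568 and 9.02, exact permutation p = 0.029). Pooled over plates it was found in 1 of 356 cells (interval 0.00711% to 1.56%) and in 200 of 355 cells (51.0% to 61.6%).

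Psmb10 had a molecule in 4.55% to 10.99% of cells at E10.5 and in 26.7% to 42.7% at E12.5 (exact permutation p = 0.029). H2-K1 was found in 2.27% to 4.71% of cells at E10.5 and in 8.89% to 12.9% at E12.5 (exact permutation p = 0.029). For these genes too the plates of the stages did not overlap.

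B2m was found in 1.14%, 5.49%, 12.9% and 8.70% of cells at E10.5 and in 21.98%, 12.2%, 20% and 19.1% at E12.5. Plate c of E12.5 was below plate c of E10.5, and the exact permutation p was 0.057. Psmb9 and Tap1 overlapped as well, with means of 0.588% and 6.21% for Psmb9 and 1.65% and 6.22% for Tap1 (exact permutation p = 0.057 for each). With each cell thinned to 40000 reads the shares with a read did not overlap for B2m (means of 8.40% and 21.3%) or Psmb9 (0.629% and 8.27%), with an exact permutation p of 0.029 for each. H2-D1 had means of 4.80% and 6.44% (exact permutation p = 0.600). Tap2 was found in 0 of 356 cells at E10.5, which allows a share of up to 0.843%, and in 0.850% of cells at E12.5 (exact permutation p = 0.143).

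Without overlap of the plates, 3 of the 10 genes had a higher share at E12.5 and none a lower one, where 4.53% of the 15379 genes with a molecule were higher and 2.95% lower. Counted by reads it was 4 genes, with Psmb9 added, where 4.76% of 15868 genes were higher and 3.31% lower. Counted per cell, 11.1% to 27.5% of the cells of an E12.5 plate had a molecule of 3 or more of the 10 genes, and at E10.5 at most 1.18% did. From 70.6% to 89.8% of the E10.5 cells had none, and from 16.9% to 40.0% of the E12.5 cells. Whether these counts go beyond what the shares of the single genes give was not tested.

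**Figure D2:**
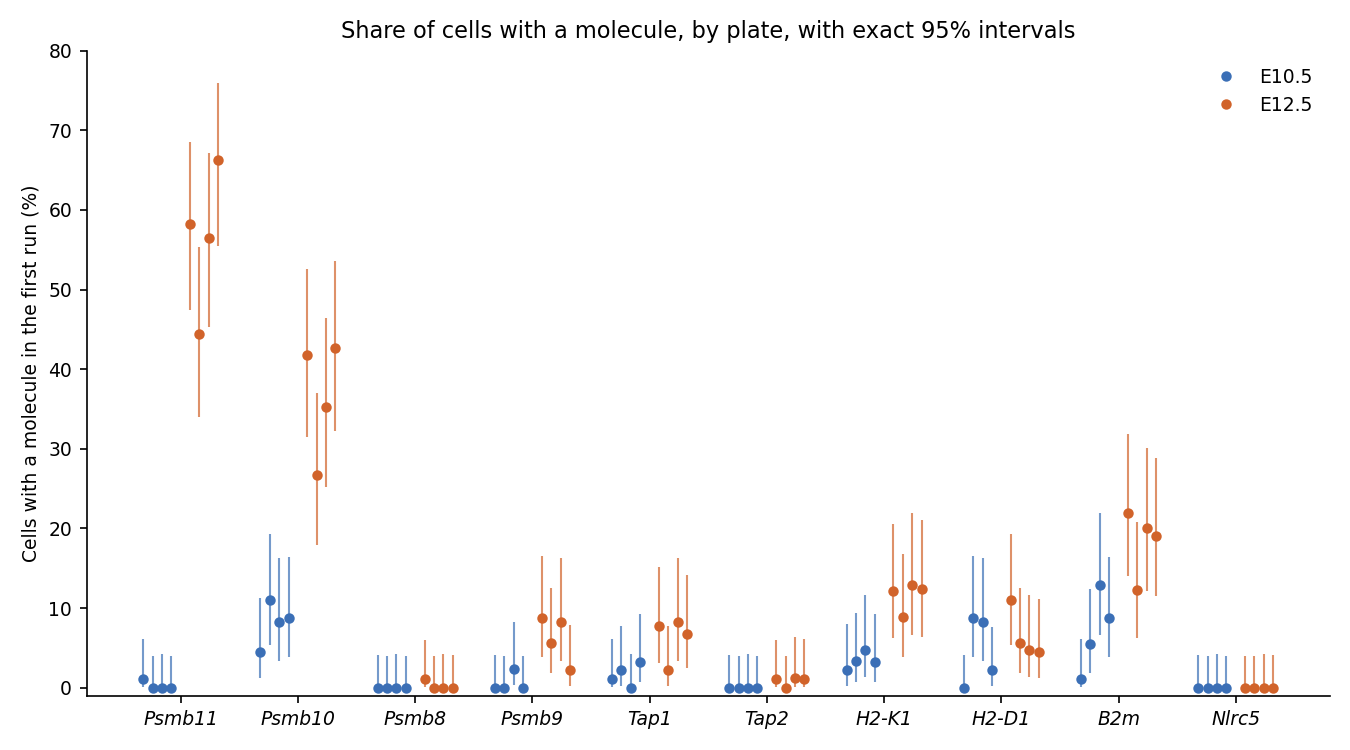
Percentage of cells with a molecule of each gene in the first sequencing run, 1 point per plate with its exact 95% interval (blue E10.5, orange E12.5). The plates of the stages were apart for Psmb11, Psmb10 and H2-K1 and for the other 7 genes they were not.

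Parathyroid cells arise from the same pouch as the thymus, and the 42 cells with Chga at 2000 CPM or more (12, 15, 9 and 6 cells in plates a, c, d and e) had reads of 4 of the 5 parathyroid markers listed, Chga itself included. Pth was at 7020 to 13351 CPM in them and at 6.33 to 15.8 CPM in the remaining E12.5 cells, and Gcm2, the parathyroid regulator, at 109 to 381 CPM against 0 to 1.75 CPM. Casr, the calcium-sensing receptor gene, was at 8.61 to 161 CPM against 0 to 2.95 CPM, while Chgb, another granule protein gene of the list, was at 0 in all 4 parathyroid sums and at 0 to 0.877 CPM in the rest. The Chga limit lay in a gap, with 4 cells from 500 to 1000 CPM, none from 1000 to 2000, 1 from 2000 to 5000 and 41 above. Both sums of a plate came from one library. Haematopoietic markers summed to 0.453 to 411 CPM in the parathyroid sums, the highest in plate a. The 6 mesenchymal markers summed to 32.5 to 105 CPM in the parathyroid sums and to 4.97 to 29.9 CPM in the remaining cells, without overlap, and their part in the differences was not tested.

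Psmb11 was almost unread in the parathyroid cells. There it was at 0.503, 0.907, 1.26 and 2.96 CPM in plates a, c, d and e, from 8 reads in all. In the remaining cells of these plates it was at 778 to 1224 CPM. The groups did not overlap, and the log2 fold change, parathyroid over the rest, was -9.65 (SE 0.57, edgeR, adjusted p = 9.96e-06). No parathyroid cell had a molecule of it, which at 0 of 42 cells allows a share of up to 7.14%, and 63.9% of the 313 others did. The result rests on the Chga limit. With a limit of 500 CPM, 4 more cells entered, 3 of them with Psmb11 reads at up to 3592 CPM and none with a Gcm2 read, and the log2 fold change became -3.10 (edgeR, adjusted p = 0.217).

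Psmb9 had no read in parathyroid cells and 505 reads in the others, which lay in 39 cells. A molecule in the first run was found in 22 of all 355 E12.5 cells (6.20%). That share is below the limit given above for 0 of 42 cells, so the shares of cells do not tell the classes apart. The pooled level by reads was at least 19.99-fold lower, taking 3 reads over the parathyroid cells as the floor, which covers counting error only (edgeR, adjusted p = 0.0329). This call was lost with the plate as a replicate block (edgeR adjusted p = 0.182) and without any 1 of the 4 plates (edgeR adjusted p from 0.0813 to 0.0891).

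Psmb10 differed widely between parathyroid sums. It was at 2.52, 173, 116 and 0 CPM in them and at 758, 755, 516 and 602 CPM in the remaining cells of the same plates. The groups did not overlap, yet the log2 fold change of -3.35 (SE 1.24) did not pass the threshold (edgeR adjusted p = 0.174). By molecules of both runs it was -3.59 and passed (edgeR adjusted p = 8.94e-05). A molecule was found in 3 of 42 parathyroid cells (7.14%, interval 1.498% to 19.5%) and in 40.6% of the others.

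None of the class I chain genes passed the test in parathyroid cells. H2-K1 was at 18.1, 68.9, 9.44 and 71.0 CPM in parathyroid cells, on both sides of the 26.0 to 32.4 CPM of the remaining cells. Its log2 fold change was 0.46 (SE 0.90, edgeR adjusted p = 0.899), and -0.030 with the plate as a replicate block (edgeR adjusted p = 0.993). In plate a all H2-K1 reads of the parathyroid sum came from the well with blood cell genes, and without that well H2-K1 was at 0 CPM there.

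B2m was at 9.05, 10.4, 0 and 10.8 CPM in parathyroid cells and at 28.8, 22.1, 17.1 and 13.3 CPM in the remaining cells. The groups did not overlap, but the log2 fold change of -1.54 (SE 1.24) did not pass (edgeR adjusted p = 0.676). H2-D1 was at 49.8 CPM in the parathyroid sum of plate a and at 0 in the other three, and Tap1 at 5.53 CPM in plate a and at 0 in the other three. Neither passed the threshold (edgeR adjusted p = 0.934 and 0.498).

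In all, 2 of the 7 members tested were lower in parathyroid cells and none higher. Of the 9839 genes tested 8.28% passed, 6.47% as lower and 1.81% as higher. With the plate as a replicate block 290 genes passed in place of 815, and of the members Psmb11 alone. Of the 637 genes called lower, 334 had no read in parathyroid cells, as Psmb9 had none. The median of the 7 was -2.61 on the log2 scale, with Psmb9 at its fitted value or at its bound, beside -0.18 for all genes tested. That last median was 0.02 with median-ratio size factors. Psmb9, Psmb10, Tap1, H2-D1 and B2m each had a parathyroid sum at 0 CPM, and Psmb11 had 8 parathyroid reads in all. All of these met the count filter only with sums of the remaining cells. Their signs and the median of the 7 are therefore no independent support.

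A further 25 cells at E12.5, below the Chga limit, had Krt5 at 1000 CPM or more with Krt17 or Cldn4 at 100 CPM or more, a combination known from progenitors of the medulla. They were 6, 6, 5 and 8 cells in plates a, c, d and e. Psmb11 was present in these cells too. It was at 152, 989, 1456 and 585 CPM in them in plates a, c, d and e, and at 1003, 1245, 749 and 805 CPM in the other thymic cells. The ranges overlapped, the log2 fold change was -0.22 (SE 0.53, edgeR adjusted p = 0.999), and a molecule was found in 14 of 25 cells (56.0%, interval 34.9% to 75.6%) and in 64.6% of the others. In the Krt5 class a single cell carried 35.7% to 99.4% of a plate's Psmb11 reads, so these levels can rest on 1 cell.

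None of the 7 members tested passed the threshold between the Krt5 class and the other thymic cells. There edgeR called 1 gene of 9343 (0.0107%), 1002 had an unadjusted p under 0.05 and DESeq2 called 751. The 1 gene was Krt5, whose level defines the class, so its call was fixed in advance. On simulated data edgeR recovered 1.47% of 8-fold changes in this comparison, so a call missed here says little. With the plate as a replicate block edgeR called 11, none a member. Psmb10 was at 413, 5.005, 770 and 108 CPM in the Krt5 class and at 496 to 820 CPM in the others (log2 fold change -1.07, SE 0.92, edgeR adjusted p = 0.880). Psmb9 had no read in the 25 cells (edgeR adjusted p = 0.0728, DESeq2 adjusted p = 0.00111). For this comparison DESeq2 made 52 false calls on simulated data. None of 25 cells allows a share of up to 12%, and 7.64% of the other thymic cells had a Psmb9 molecule, so the shares do not tell these classes apart. H2-K1 was at 123, 138, 43.6 and 0 CPM, above and below the others. In plates with reads, a single cell of the class carried 41.5% to 100% of the Psmb10 reads and 52.6% to 100% of the H2-K1 reads.

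**Figure D3:**
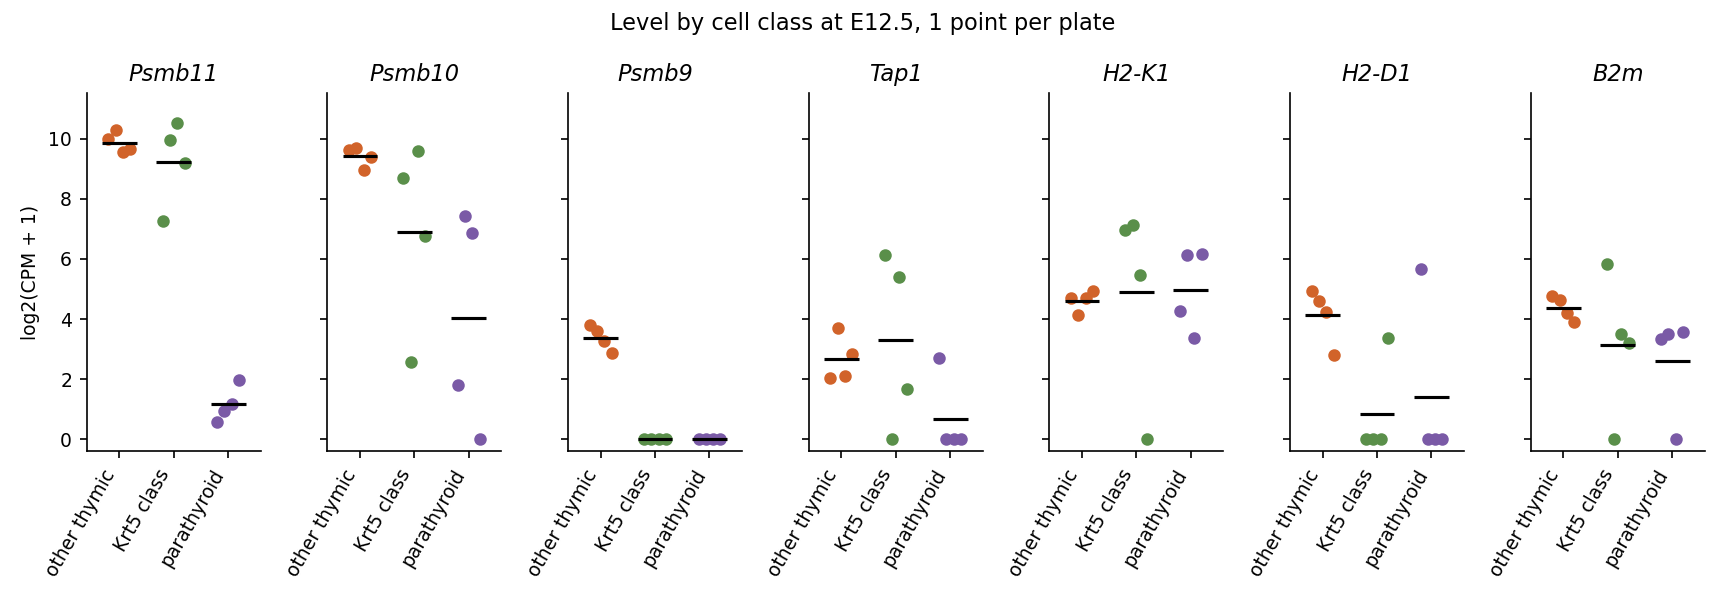
Level of the 7 tested genes at E12.5 as log2(CPM + 1), 1 point per plate for the other thymic cells (orange), the Krt5 class (green) and the parathyroid cells (purple), with a bar at the mean. Psmb11 was at 2.96 CPM or less in parathyroid cells, and Psmb9 was read in the other thymic cells only.

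At E10.5 the neural cells and the remaining cells were described without a test. Psmb10 was at 0.426, 81.1, 20.4 and 95.7 CPM in the 64 neural cells and at 158, 79.9, 29.0 and 38.0 CPM in the 292 others. B2m was at 0 to 5.19 CPM in the first and at 1.58 to 6.18 CPM in the second. Psmb9 and Tap1 were read in the second only, in 1.37% and 3.08% of its cells. No read in 64 neural cells allows a share of up to 4.69%, so the groups cannot be told apart for these genes.

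The relation of the members to Foxn1 was described over the 313 E12.5 cells below the Chga limit (79, 75, 76 and 83 cells), as the mean of the 4 within-plate Spearman coefficients of CPM. Cells of a plate share a library and differ in depth, so no p is given. Over the 7164 genes read in at least 10% of these cells the coefficients with Foxn1 had a median of 0.0096, and their 5% and 95% quantiles were -0.089 and 0.115. Foxn1 itself was at 211, 277, 196 and 164 CPM over all E12.5 cells of plates a, c, d and e and at no more than 1.53 CPM at E10.5. In the E12.5 cells below the Chga limit it was at 175 to 326 CPM.

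Psmb11 had a coefficient of 0.217, 0.226, 0.116 and 0.229 in the 4 plates, with a mean of 0.197, rank 18 of 7164. Of the reference genes of thymic epithelium, Ccl25, a chemokine gene, had 0.233 and Prss16, a protease gene, 0.227. Over the 245 cells with a Foxn1 read the mean for Psmb11 was 0.0412. A molecule of Psmb11 was found in 69.4% of the 183 cells with a Foxn1 molecule and in 56.2% of the 130 without.

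The other members were within or near the range of all genes. Psmb9 had a mean of 0.1005 and Psmb10 one of 0.0878, and over the cells with a Foxn1 read Psmb10 turned to -0.0355. The mean of Psmb9 was 0.0656 over those cells, 0.0723 with each cell thinned to 40000 reads and 0.0116 by molecules. H2-K1 had 0.0398, H2-D1 0.0315 and Tap1 0.0185. B2m had -0.0431, and a molecule of it was found in 16.4% of the cells with a Foxn1 molecule and 24.6% of those without, while by reads it was found in 31.4% of the 245 cells with a Foxn1 read and 29.4% of the 68 without.

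With Psmb11 in place of Foxn1, Psmb10 had 0.377 to 0.495 in the 4 plates with a mean of 0.449, and it was found by a molecule in 52.5% of the 200 cells with a Psmb11 molecule and in 19.5% of the 113 without. The 10 genes most like Psmb11, among 4395 read in at least 20% of these cells, were Ccl25 (0.643), Krt18 (0.551), Ctsl (0.505), Krt8 (0.497), Ndrg3 (0.456), Psmb10 (0.449), Hes6 (0.441), Plcd1 (0.440), Gas6 (0.430) and Mfsd12 (0.400). Among the other members Psmb9 had 0.242, H2-K1 0.214, B2m 0.130, H2-D1 0.0879 and Tap1 0.0170. The upper 5% of all genes began at 0.147.

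Psmb10 also had coefficients of 0.318 with Psmb9, 0.284 with H2-K1 and 0.268 with H2-D1. H2-K1 and H2-D1 had 0.294 with each other. H2-K1 and B2m, the chains of one molecule, had -0.0482. The genes most like B2m were Psma2 (0.253), Pqlc3 (0.219), Cox6c (0.205), Chrac1 (0.205) and Tial1 (0.203). Depth moved with most of these values. The coefficient with a cell's protein-coding reads was 0.211 for Psmb10, 0.177 for H2-D1, 0.136 for Psmb11 and 0.136 for B2m. It was 0.124 for Psmb9, 0.109 for H2-K1 and -0.0289 for Tap1. With each cell thinned to 40000 reads the coefficients with Foxn1 were 0.192 for Psmb11, 0.0910 for Psmb10 and -0.0204 for H2-K1.

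**Figure D4:**
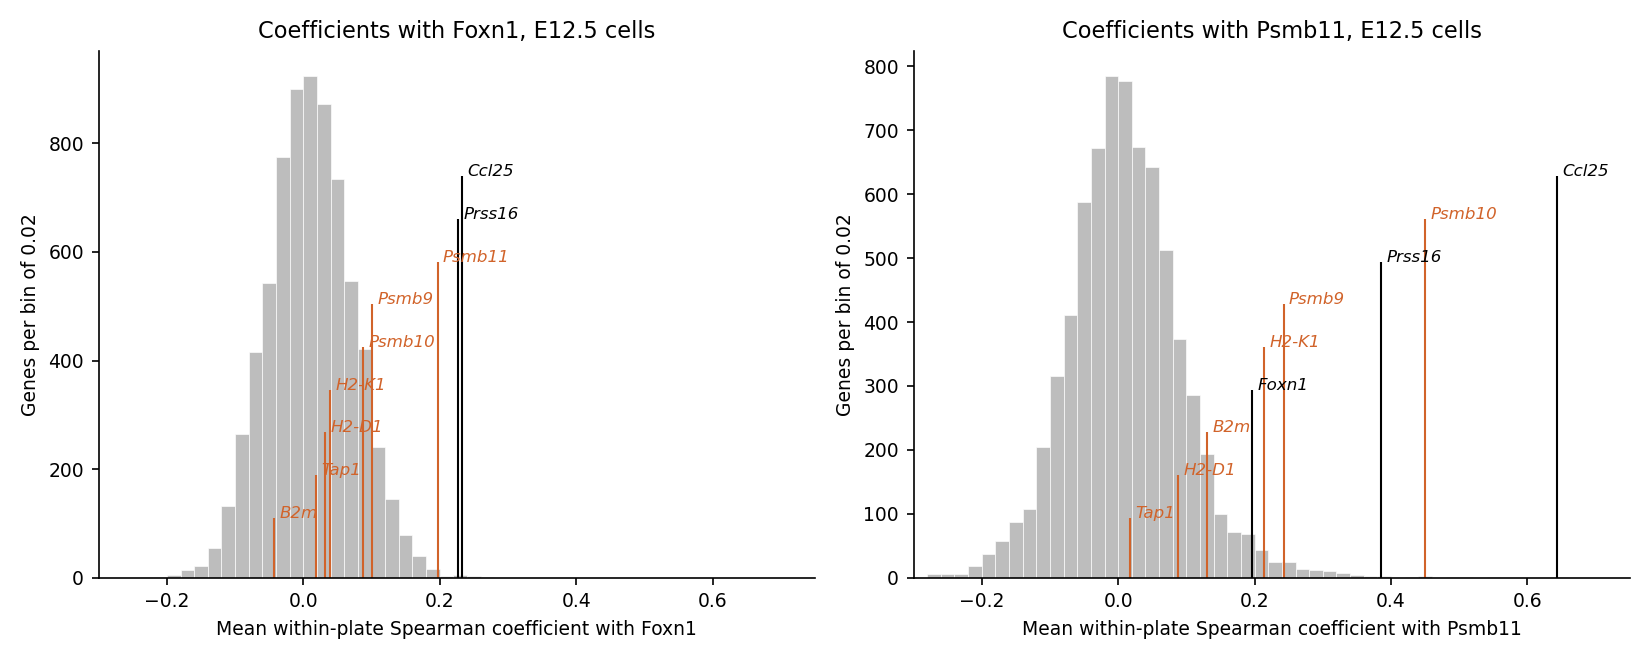
Histograms of the mean within-plate Spearman coefficient with Foxn1 (left) and with Psmb11 (right) over genes read in at least 10% of 313 E12.5 cells, with the members marked in orange and reference genes in black. Psmb11 stood at 0.197 with Foxn1, and Psmb10 at 0.449 with Psmb11.

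Between the stages, genes of the constitutive proteasome had medians below 0. None of its 3 catalytic subunit genes passed, with a median of -0.56, Psmb6 at 2271 to 3398 CPM at E10.5 and 1672 to 2366 CPM at E12.5 (log2 fold change -0.56, edgeR adjusted p = 0.253) and Psmb7 at -0.70 (edgeR adjusted p = 0.403). Of the 11 other subunits of the 20S core, with a median log2 fold change of -0.33, 1 fell, Psma7 of the alpha ring (-0.76, edgeR adjusted p = 0.0306), where 2.44% of all genes tested were lower. Its call was lost when any plate but E10.5 plate a was left out (edgeR adjusted p from 0.0555 to 0.101). Of 9 assembly factors and activators, with a median of -0.22, 1 fell, Psme1, a subunit of the PA28 activator. It was at 233 to 398 CPM at E10.5 and at 60.1 to 192 CPM at E12.5 (-1.58, edgeR adjusted p = 0.0171), and without plate a or plate d of E12.5 it was not called (edgeR adjusted p = 0.0535 and 0.0524).

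Of 6 genes of peptide loading and trimming 2 rose, with a median of 1.65 over the list, where 3.8% of all genes tested were higher. By molecules of both runs 4 of the list could be tested, with a median of 0.30, and 1 rose, Tapbp. Tapbp, encoding tapasin, was at 1.75 to 5.57 CPM at E10.5 and 21.5 to 41.8 CPM at E12.5 (log2 fold change 3.06, edgeR adjusted p = 0.0100), and the related Tapbpl at up to 0.343 CPM and at 6.95 to 19.1 CPM (edgeR adjusted p = 0.0094). The list of 16 other class I and class I-like genes had 4 that could be tested, with a median of 2.90, and 1 rose, Fcgrt, the heavy chain of the neonatal Fc receptor, which carries antibodies and presents no peptide (at most 1.06 CPM against 21.3 to 60.7 CPM, edgeR adjusted p = 0.0100). Most Fcgrt reads at E12.5 lay in the parathyroid cells, 1871 against 262 in the remaining cells. Those remaining cells were at 0.0627 to 9.63 CPM, a range that overlaps the plates of E10.5. Tapbpl and Fcgrt, each with a plate at 0 CPM at E10.5, met the count filter only with plates of E12.5. Their direction and the medians of their lists are therefore no independent support.

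Regulators of class I genes had 4 of 14 tested genes higher and none lower, with a median of 1.498, beside the same 3.8% of all genes as higher. Irf1 was at 0 to 5.36 CPM at E10.5 and 101 to 113 CPM at E12.5 (log2 fold change 5.68, edgeR adjusted p = 0.00835). Nfkb1 and Irf8 rose by 3.73 and 3.78 (edgeR adjusted p = 0.0233 and 0.0304). Nfkb1 was not called without plate d of E10.5 or plate e of E12.5 (edgeR adjusted p = 0.0662 and 0.0602), nor Irf8 without plate b or d of E10.5 or plate c, d or e of E12.5 (edgeR adjusted p from 0.0598 to 0.0927). None of 7 interferon receptor and kinase genes passed, with a median of 0.60 and Jak1 at 0.27 and Ifngr1 at 0.31, which was below 0 without plate a of E12.5 (-0.20). Of 15 interferon-induced genes 9 could be tested, 7 of them with a log2 fold change above 0, with a median of 3.68, and 3 rose. Bst2 and Ly6e were below 0, at -3.44 and -0.52, and did not pass (edgeR adjusted p = 0.379 and 0.474). Ifitm3 was at 60.1 to 114 CPM at E10.5 and 981 to 1093 CPM at E12.5 (3.40, edgeR adjusted p = 4.83e-05). The GTPase genes Igtp and Gbp2 had no read at E10.5 and were at 5.61 to 17.3 and 3.42 to 11.7 CPM at E12.5 (edgeR adjusted p = 0.00395 and 0.00893). Both met the count filter only through E12.5, so the direction of their change was fixed in advance. Irf1, Nfkb1 and Irf8, down to 0, 0.377 and 0.0795 CPM in a plate of E10.5, also met it only with plates of E12.5. Their direction and the medians of the regulators and of the interferon-induced genes are therefore no independent support.

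In parathyroid cells against the rest, where 6.47% of all genes tested were lower and 1.81% higher, no constitutive catalytic subunit and no gene of peptide loading passed, and 1 of 11 other core subunits fell, Psmb4 (-1.57, edgeR adjusted p = 0.0169). Psme1 was higher there, at 427 to 616 CPM against 34.5 to 130 CPM (2.90, edgeR adjusted p = 0.00573), as was Fcgrt at 130 to 400 CPM against 0.0627 to 9.63 CPM (5.71, edgeR adjusted p = 0.0334). Of 5 interferon-induced genes tested 4 were lower, with a median of -7.27 from genes at or near 0 reads in parathyroid cells. Ifitm3 was at 1.89 to 57.2 CPM in parathyroid cells and 1106 to 1243 CPM in the others (-6.28, edgeR adjusted p = 0.0150), and Iigp1, Igtp and Gbp2 had 1, 0 and 0 reads in parathyroid cells (edgeR adjusted p = 0.0297, 0.0331 and 0.0333). Among the regulators, with a median of -2.17, 2 of 14 were lower, Irf8 with 3 reads and Irf9 with 0 reads in parathyroid cells (edgeR adjusted p = 0.0414 and 0.0334). Iigp1, Igtp, Gbp2, Irf8 and Irf9 met the count filter only through the remaining cells, so the direction of their change was fixed in advance. The medians of both lists are therefore no independent support.

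Most of these calls depended on the fit. With the plate as a replicate block Psmb4, Psme1 and Ifitm3 were called (edgeR adjusted p = 0.00456, 0.00193 and 0.00705). Fcgrt, Iigp1, Igtp, Gbp2, Irf8 and Irf9 were not (edgeR adjusted p from 0.0570 to 0.183). Whichever plate was left out, Psmb4 and these 6 genes were not called (edgeR adjusted p from 0.0773 to 0.146). Psme1 was not called without plate a or d (edgeR adjusted p = 0.0615 and 0.0766), and Ifitm3 without plate a, c or d (edgeR adjusted p from 0.0813 to 0.0876) or with a Chga limit of 500 CPM (edgeR adjusted p = 0.0835). No gene of these lists passed in edgeR between the Krt5 class and the other thymic cells, and DESeq2 called 2 interferon-induced genes lower.

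**Figure D5:**
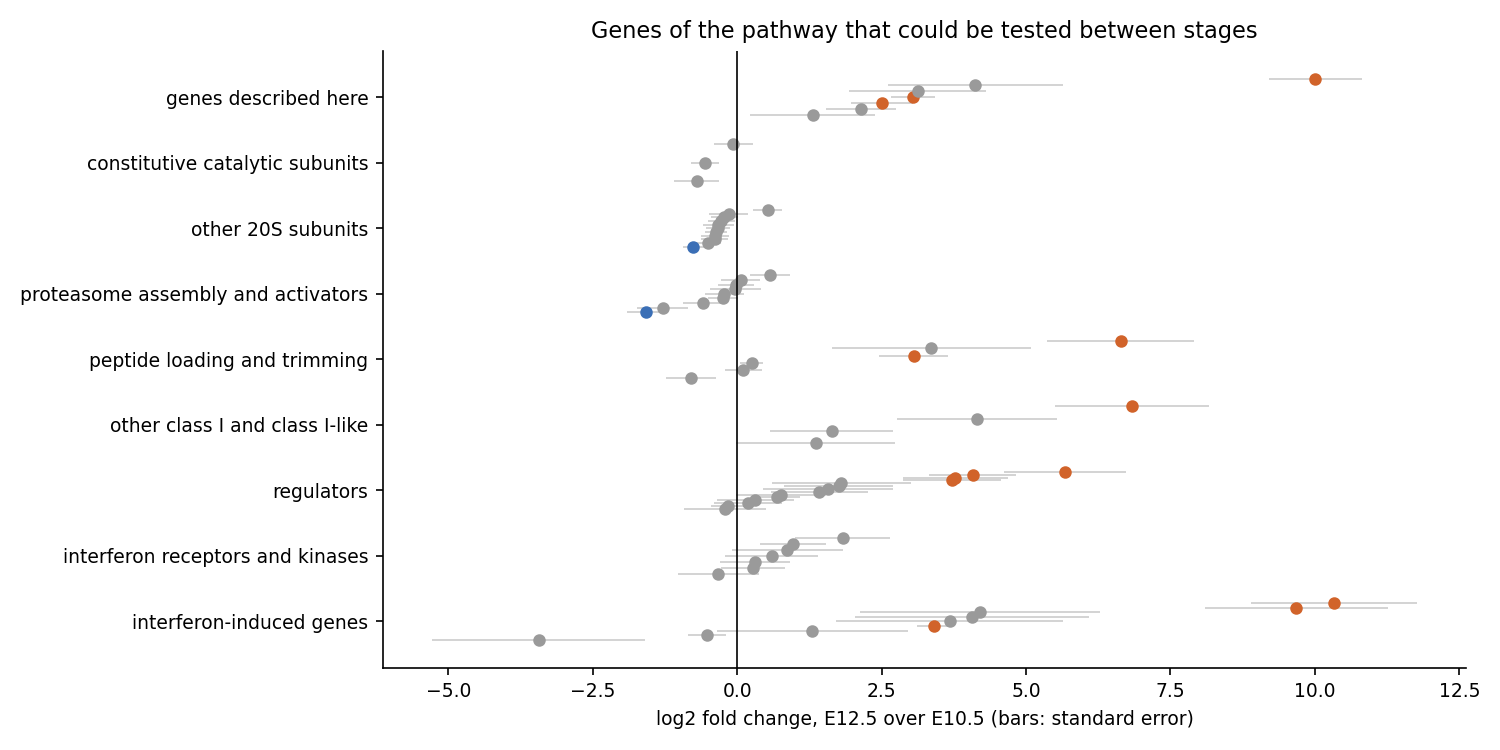
Log2 fold change of E12.5 over E10.5 with its standard error for each gene of the lists that could be tested, orange where higher and blue where lower by edgeR at an adjusted p under 0.05, grey otherwise. The genes described here lie to the right of 0, Psmb11 farthest at 10.01, and the 3 catalytic and 11 other core genes of the constitutive proteasome have medians of -0.56 and -0.33.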

How the data were processed

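Single cells sorted for EPCAM and PLET1 were analysed from 4 plates of each stage. Wells were demultiplexed by the authors in the BD Precise WTA pipeline, which aligned reads with STAR and made gene counts by HTSeq-count union rules, on GRCm38.p6 and GENCODE vM18 per the file headers (the labels name GRCm38.p5 as build). The deposited table holds raw read counts without normalization, and each plate in it equals a first run plus a repeat run of 1 library. The deposited molecule counts are those after the RSEC and DBEC corrections. They were summed over both runs for fold changes, where a molecule found in both counts in each, and taken from the first run for shares of cells. Every column of the table was mapped to a plate. The barcode set is reused, with 89 well barcodes found on every plate. Cells were sorted singly, so no doublet caller was run.

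Over protein-coding genes (21964 of 54179) the study's own cell filters were used, which are a mitochondrial share of at most 50%, 40000 to 400000 reads and 500 to 5000 features. They kept 711 cells, 356 at E10.5 and 355 at E12.5, and these counts differ slightly from those the paper reports. Sums over the cells of a plate, or over those of a class where a plate had at least 3, were compared with edgeR 4.0.16 (TMM, filterByExpr, robust quasi-likelihood fit, limma 3.58.1, R 4.3.3), with Benjamini-Hochberg adjustment over all genes tested and a threshold of 0.05. Standard errors were derived from edgeR's F. Shares of cells were compared by two-sided exact permutation of the plates, and their p values were not adjusted. A floor is 3 reads, or 3 cells for a share, over a group. Intervals and floors cover counting error only, since reads are not independent molecules. Other steps were run in Python 3.11.15 (scipy 1.17.1, numpy 2.4.6, pandas 2.3.3, matplotlib 3.10.9). Alternatives were DESeq2 1.42.0, other size factors, no filter on low counts, molecules of both runs or of the first, no cell filter, other class limits, leaving out plates or classes, a replicate block, and plate b of E12.5, which has a single run and is not in the table.

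Tested on simulated data with 200 changed genes, edgeR recovered 61.0% of 8-fold changes between stages (11499 genes, 1 false call), 5.26% between parathyroid and other cells (9839 genes, 1 false call) and 1.47% for the Krt5 class (9343 genes, 0 false calls). DESeq2 recovered 76.3%, 36.8% and 14.7% of 8-fold changes and made 31, 76 and 52 false calls. The simulated counts were drawn with dispersions estimated by edgeR, which may favour edgeR. Residuals of same-lettered plates of the stages correlated at 0.074, -0.012 and 0.027, and those of the class sums of a plate at 0.030 to 0.072 and 0.029 to 0.117, so letters were not taken to pair the stages. The class sums of a plate come from 1 library. They were compared without the plate as a block, and the blocked values stand beside the results they change.

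The 10 genes, the lists and the tests were chosen with earlier results of these data known. Named were the 10 genes, Foxn1, Prss16, Ccl25, Chga, Krt5 and Tubb3 as references, up to 4 genes of each list past the threshold by smallest adjusted p or the 2 with most reads, the 10 genes most like Psmb11 and the 5 most like B2m. Markers of other cell types named beside them were fixed as lists. Motifs were searched on both strands of the 250 bases before RefSeq start sites, for the 8 members with a promoter in the table used. A motif and a gene of the lists are not reported here.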

Additional observations from a re-analysis of the deposited data

Results flagged for a closer look

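In 8 of 38 groups of 4 plates, 1 plate lay far from the other three by Dixon's criterion. For continuous values chance flags about 1 in 20 groups, but in 6 of the 8 the other three plates were at 0, where the criterion is met by any value, so the number is not to be read against that rate. Psmb8 was at 0.0754 CPM in plate b of E10.5 and at 0 in the other plates, and at 10.8 CPM in plate a of E12.5 and at 0 in the others. The latter reads came from the 1 well described above, with Chga over its limit and reads of blood cell genes. They set the parathyroid sum of plate a to 89.0 CPM. In the same sum Tap1 was at 5.53 CPM and H2-D1 at 49.8 CPM, with 0 in the other parathyroid sums. The well had no Tap1 read, and without it H2-D1 was at 43.2 CPM in that sum. B2m was at 0 CPM in the parathyroid sum of plate d and between 9.05 and 10.8 CPM in the others. H2-D1 was at 9.45 CPM in the Krt5 class of plate e and at 0 in the others. Psmb9 was at 1.54 CPM in plate c of E10.5 and at 0.151 CPM or less in the others.

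Plate b of E12.5 is outside the table and was not used in the main comparisons above. It was added only in an alternative fit between stages, as given for B2m. In its single run 6 members were above their highest E10.5 plate: Psmb11 at 624.9 CPM, Psmb10 at 461.9 CPM, Psmb9 at 5.06 CPM, Tap1 at 6.59 CPM, H2-K1 at 9.34 CPM and B2m at 17.8 CPM. The highest E10.5 plates were at 1.96, 129, 1.54, 1.35, 6.9999 and 5.81 CPM. Its 87 cells had a median of 68744 protein-coding reads, and the cells of the E12.5 plates in the table had medians of 148048 to 209514.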

How the results depend on the processing

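Psmb11 and Psmb10 were called higher at E12.5 under every alternative run for the stages. With DESeq2 1269 genes passed between stages, 6 of them members, and with the plate letter as a replicate block 230. H2-K1 was not called with the replicate block (edgeR adjusted p = 0.192) or without plate e of E12.5 (0.0511). Of the list genes named as higher or lower between stages, Fcgrt and Ifitm3 were called with that block (edgeR adjusted p = 0.0227 and 0.00691) and the others were not (0.0751 to 0.224). Leaving out a plate gave 496 to 815 genes and 2 to 4 members. Between parathyroid and other cells 1319 genes passed with DESeq2, 330 without the low-count filter, 543 by molecules, 362 by molecules of the first run (a choice made after seeing the data), 290 with the replicate block and 104 to 139 without a plate (104 without a, 115 without c, 106 without d and 139 without e). Members past the threshold were then 1 without the filter, 1 with the replicate block, 1 with a Chga limit of 500 CPM and 1 without any single plate. H2-K1 turned to -0.030 with the block. For the Krt5 class 751 genes passed with DESeq2, 1 of them a member, 2 with median-ratio size factors, 2 without the filter, 46 by molecules, 26 by those of the first run, 11 with the replicate block, 2 with Krt5 limits of 500 or 3000 CPM, and 0 to 1 without a plate. There Psmb11 turned to 0.13 with the limit of 500 CPM and ranged from -0.85 to 0.10 without a plate, and B2m turned to 0.031 with DESeq2 and with median-ratio size factors and ranged from -1.43 to 0.31.

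Over cells with a Foxn1 read the coefficients with Foxn1 were 0.0412 for Psmb11, -0.0355 for Psmb10, -0.0388 for Tap1 and -0.00926 for H2-D1. H2-K1 turned to -0.0185 by molecules and to -0.0204 with thinned cells. Without a plate Psmb11 ranged from 0.186 to 0.224, Psmb10 from 0.0504 to 0.104, H2-K1 from 0.000287 to 0.0912, B2m from -0.101 to -0.00903, Tap1 from -0.00665 to 0.0573 and H2-D1 from -0.0188 to 0.107. Counted by reads, 4 members had separate shares, and 4 to 7 without a plate (7 without plate c of E12.5). The difference of the H2-D1 share was -0.0449 percentage points by reads, 0.853 with thinned cells, 1.64 by molecules and -3.33 to 2.16 without a plate. Between stages Ifngr1 turned to -0.084 by molecules, -0.47 without parathyroid and neural cells and -0.22 without cells with a Ptprc read, and ranged from -0.20 to 0.59 without a plate. The cause of these changes was not tested. Of the values for single genes 668 kept their side of the threshold, 10 passed it anew, 84 lost it, 23 turned and 3 moved by more than the spread between plates.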
